A study of Mus musculus with 9 samples.

Results

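The genes described here are the nuclear-encoded genes of oxidative phosphorylation, read as FPKM, a count of fragments divided by transcript length and library size, in a mouse oviductal cell line. They were chosen by name: every row whose symbol began with Nduf, Uqcr, Atp5 or Sdh, or with Cox followed by a digit. This gave 100 of 23332 rows and 99 symbols, since Cox7a1 stands in 2 rows. By complex, 42 rows belonged to complex I, 6 to complex II, 8 to complex III, 26 to complex IV and 17 to complex V. The remaining 1 row, Cox4nb, takes its name from its position next to Cox4i1 and encodes no part of the chain. The 93 rows that reached 1 FPKM or more in 3 or more samples are the tested members, and 7 rows were too low to test.

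Oxidative phosphorylation takes electrons from NADH through complex I, and from succinate through complex II, passes them to complex III and by cytochrome c to complex IV, and uses the proton gradient built on the way to make ATP at complex V. Most subunits are encoded in the nucleus and imported into the mitochondrion, and assembly factors build the complexes without remaining in them. Estrogens are known to act on mitochondrial genes in several tissues, partly through the nuclear respiratory factors and the estrogen-related receptors. Cox7a2l, which joins complexes III and IV into supercomplexes, was known early on as an estrogen-responsive gene.

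The cells were FVB MOE, a clonal line of secretory oviductal epithelium from FVB mice, so each value describes 1 clone. All samples were hormone starved for 48 h. They then received, for 24 h, the solvent alone (0.1% DMSO), 1 nM 17β-estradiol (E2) or 100 nM 4-hydroxytamoxifen (4OHT), the active metabolite of tamoxifen, both in DMSO. Each condition had 3 samples, numbered 1 to 3. The labels do not say that the numbers stand for separate cultures, so the p-values measure the spread between these samples, which may be technical.

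The response of the line to E2 could be read from Pgr, the progesterone receptor gene, which stood at 9.58, 1.36 and 1.16 FPKM in DMSO and at 38.1, 21.1 and 15.9 in E2. Its log2 fold change was 2.70 (limma with the replicate number as a block, adjusted p = 1.98e-04, and 0.172 without it). The fit without the block thus did not call it. Most epithelial and secretory markers were present, with Krt8 at 334 to 623 FPKM and Pax8 at 105 to 150 over all samples. Ovgp1 was at only 1.44 to 2.61, and Epcam (at most 0.138) and Cdh1 (at most 0.422) were near 0. Markers of other cell types were mixed. Of the 5 stromal markers Thy1 was at 0 and Col1a2, Col3a1 and Pdgfra at most 0.111 FPKM, but Col1a1 was at 1.84 to 6.73. Of the 4 leukocyte markers Cd3e was at 0, Ptprc at most 0.0268 and Itgam at most 0.113, but Cd68 was at 3.01 to 4.01. Of the 4 smooth muscle markers Des, Myh11 and Actg2 were at most 0.559 FPKM, but Cnn1 stood at 10.0 to 36.5. Of the 4 ciliated markers in the table Tekt1 was at most 0.188, Rsph1 and Ccdc39 were at 1.00 to 3.86, and Foxj1 at 8.95 to 15.9.

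Some of these markers moved with E2. The ciliated markers did not share a direction. Foxj1 was at 8.95, 11.7 and 13.0 FPKM in E2 and at 13.6 to 15.9 in DMSO (limma with block, adjusted p = 0.0057, and 0.274 without it). Rsph1 was at 3.65, 3.86 and 3.52 FPKM in E2 and at 3.10, 3.21 and 2.98 in DMSO (limma with block, adjusted p = 0.0447, and 0.318 without it). Ccdc39 was not called. Cnn1 had a log2 fold change of -0.43 (limma with block, adjusted p = 0.021, and 0.754 without it). The summed level of the 8 secretory and epithelial markers was 1415 to 1558 FPKM in DMSO, 2322 to 2562 in E2 and 1473 to 1673 in 4OHT. With the block 5 of the 6 tested (Krt7, Krt8, Krt18, Krt19 and Pax8) rose in E2 against DMSO, Krt7 also without it. The other tested marker, Ovgp1, had a log2 fold change of -0.29 and was not called (limma with block, adjusted p = 0.068, and 0.409 without it). The part of these markers in the results on the chain was not tested.

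The files give FPKM and no counts, and the study's own read totals are not used here. Relative to the first DMSO sample, the depth read from the smallest values was 1.00 to 1.18 in DMSO, 0.838 to 1.07 in E2 and 0.818 to 0.923 in 4OHT, so that each 4OHT sample was shallower than each DMSO sample.

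The chain was expressed at a high level. The 93 tested members had a median of 126 FPKM in DMSO, against 13.7 over the 11339 rows tested, and together took 3.06 to 3.34% of all FPKM in a sample. The 74 subunits had a median of 163 FPKM and the 15 assembly factors a median of 11.7. Complex IV subunits had the highest median (425 FPKM, 10 genes), followed by complex V (272, 15 genes), complex III (127, 8 genes), complex II (105, 4 genes) and complex I (93.5, 37 genes). Since FPKM is a level per length, these can be set side by side.

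**Figure D1:**
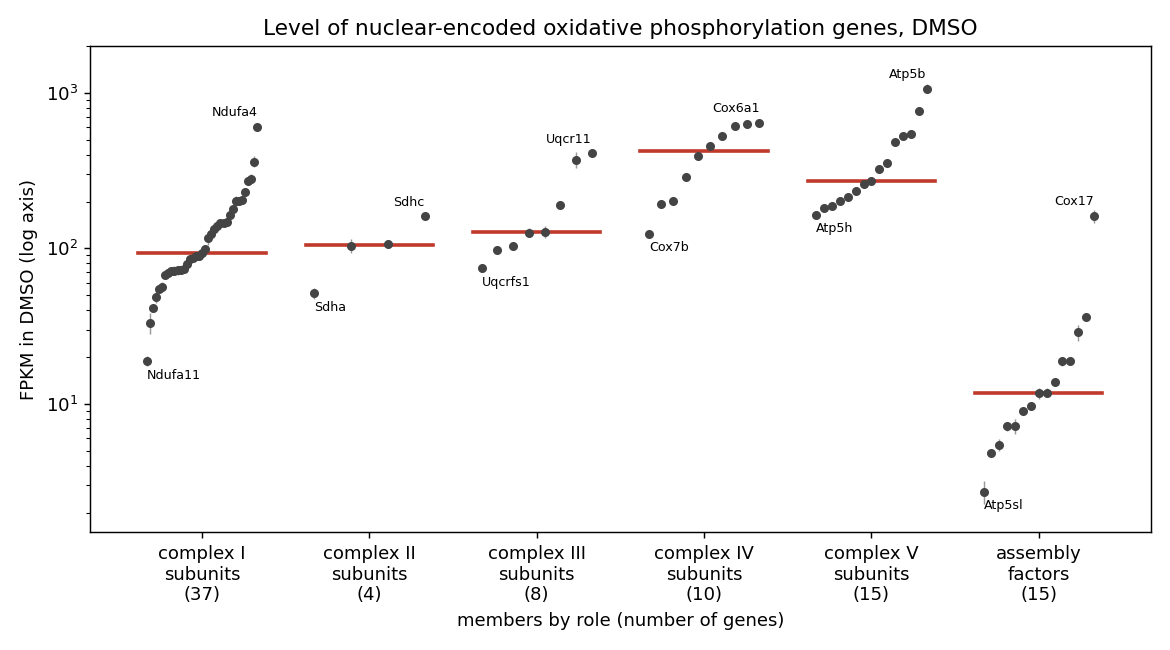
Mean FPKM in DMSO (log axis) of each tested subunit by complex and of each assembly factor, with the number of genes in brackets; error bars are the SD over the DMSO samples and red lines are medians. Complex IV subunits have the highest median (425 FPKM) and assembly factors the lowest (11.7 FPKM).

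Within the complexes the highest members were Atp5b, the catalytic beta subunit of ATP synthase, at 1064 ± 69.8 FPKM (SD, n = 3), Cox6a1 of complex IV at 638 ± 32.4, Ndufa4 at 605 ± 23.6, Uqcr11 of complex III at 409 ± 3.78, and Sdhc, a membrane anchor of complex II, at 161 ± 4.19 (n = 2). Ndufa4 was first described in complex I, under which its symbol places it, and is now taken as a subunit of complex IV. The 7 core subunits of complex I in the list were lower, with a median of 74.1 FPKM, from 41.4 for Ndufs1 to 145 for Ndufs7. Subunits of the same complex thus spanned a wide range. In complex I, with Ndufa4 set aside, they went from Ndufa11 at 18.9 FPKM to Ndufb6, at 396, 342 and 346 in the DMSO samples. In complex II they went from 51.3 (Sdha) to 161 (Sdhc). The highest assembly factor was Cox17, a copper chaperone for complex IV, at 161 FPKM, followed by Cox19 at 36.0 and Cox18 at 28.9.

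Members varied little between samples. The median coefficient of variation over the 9 samples was 5.79% for the members and 9.0% for all tested rows, which are on the whole expressed at a lower level.

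Where a subunit has several isoforms, the widely expressed one held nearly the whole signal. Cox4i1, Cox6a1 and Ndufa4 each made up at least 99.97% of the FPKM of their pair in every sample, Cox6b1 99.4 to 99.7%, and Cox7a2 98.3 to 99.3%. The hypoxia- and tissue-restricted partners Cox4i2, Cox6a2 and Ndufa4l2 did not exceed 0.195 FPKM in any sample, and Cox8b, Cox8c and Cox7b2 were listed at 0 in all 9. Subunit c of ATP synthase, whose mature protein is the same from each of 3 genes, came from all of them: Atp5g3 gave 50.1 to 52.0%, Atp5g2 35.4 to 37.3% and Atp5g1 12.5 to 13.0% of their summed FPKM. These shares moved by at most 1.89 percentage points over the 9 samples, treated or not.

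Exact zeros stood in 2 well-expressed members. Atp5a1, the alpha subunit of ATP synthase, was listed at 0 in DMSO replicates 2 and 3 and in 4OHT replicate 1, and at 214 FPKM in DMSO replicate 1, 210, 212 and 227 in E2, and 244 and 228 in the other 4OHT samples. Sdhc was listed at 0 in DMSO replicate 1 and at 148 to 180 FPKM in the other 8 samples. Such zeros were set apart as missing, here and in 217 tested rows in all, where the nonzero values had a median of at least 5 FPKM. The DMSO level of Atp5a1 therefore rests on 1 sample and that of Sdhc on 2, and for Atp5a1 a mean over the printed zeros would have made a difference between treatments where the nonzero values lay between 210 and 244. How the zeros came about was not tested.

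**Figure D2:**
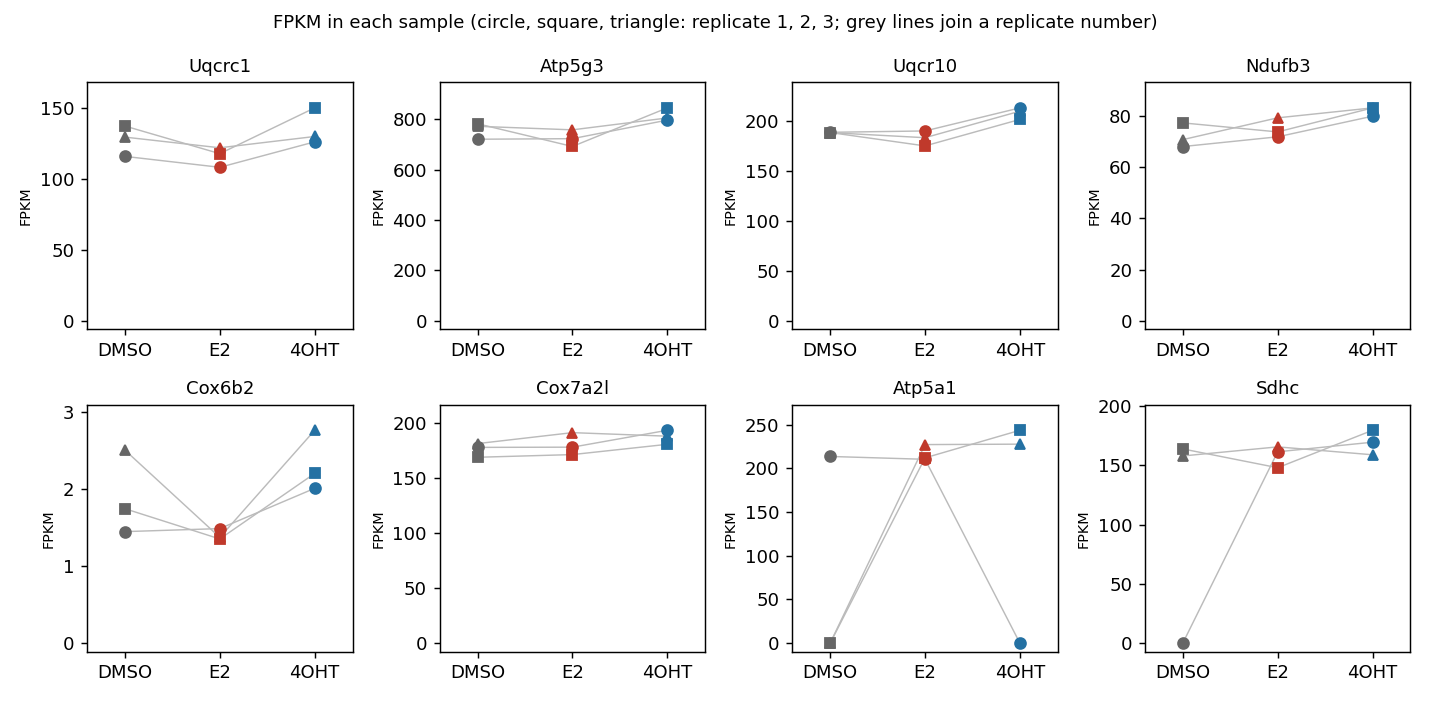
FPKM (axes from 0) of 8 members in each sample; colours are treatments, symbols replicate numbers, and grey lines join samples with the same number. Uqcrc1, Atp5g3, Uqcr10 and Cox6b2 are lower in each E2 than in each 4OHT sample, Cox7a2l was not called, and Atp5a1 and Sdhc hold the exact zeros.

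E2 against DMSO tests whether the hormone changes the transcripts of the chain. With limma on log2(FPKM + 1) and all 9 samples in the fit, 0 of the 93 members were called at an adjusted p under 0.05, where 0.601% of all tested rows were called. At an unadjusted p under 0.05 there was 1 member, Ndufa6, against 10.9% of all rows. The replicate number was not in this fit, so differences between same-numbered sets stayed in its spread. Pgr was not called by it either (limma adjusted p = 0.172). With the number as a block 3 members were called, against 18.5% of all rows, as described below. Without the block the median log2 fold change was -0.008 for the members and -0.002 for all tested rows, and 45 members were above 0 and 48 below. The medians of the 3 same-numbered pairs were 0.026, -0.055 and 0.022, so they did not keep 1 sign.

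The intervals of this fit cover only the spread between these samples, which may be technical. The 95% interval of the fold change lay within ±0.5 on the log2 scale for 91 of the 93 members and within ±0.25 for 76. By complex the median log2 fold changes were -0.010 for complex I, -0.006 for complex II, -0.053 for complex III, 0.017 for complex IV and -0.010 for complex V. For complex III the pair medians were 0.023, -0.140 and -0.021, a spread larger than the median itself.

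Samples with the same replicate number deviated together, and with the number as a block 3 members were called, against 18.5% of all rows (12% higher and 6.47% lower). Ndufaf2, an assembly factor of complex I, was at 11.9, 12.5 and 10.6 FPKM in DMSO and 10.7, 11.1 and 8.96 in E2. It was lower in all 3 pairs, with a log2 fold change of -0.18 ± 0.05 (SE, limma adjusted p = 0.0429, and 0.551 without the block). Ndufa6, an accessory subunit of complex I, stood at 209, 198 and 200 FPKM in DMSO and at 228, 207 and 232 in E2. Its log2 fold change was 0.14 ± 0.04 (limma adjusted p = 0.0479, and 0.429 without the block). Atp5sl, named after complex V but known as an assembly factor of complex I, was weakly expressed, at 3.19, 2.75 and 2.26 FPKM in DMSO and 3.52, 3.63 and 2.89 in E2. Its log2 fold change was 0.22 ± 0.06 with a limma adjusted p of 0.0408, and 0.523 without the block. Of these 3 genes, 2 were higher and 1 lower, and in none of them did the groups stand clear of each other. Leaving out 1 sample at a time from the blocked fit, an alternative added after seeing the data, left 0 members called without DMSO replicate 2, DMSO replicate 3 or E2 replicate 3, 1 without DMSO replicate 1 or 4OHT replicate 1, and 2 or 3 otherwise.

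Cox7a2l showed no call. It was at 178, 169 and 181 FPKM in DMSO, 178, 171 and 191 in E2 and 194, 181 and 188 in 4OHT. The log2 fold change for E2 was 0.03, with a 95% interval from -0.10 to 0.17, and for 4OHT 0.09, with an interval from -0.04 to 0.22. The other members with the largest differences under E2 did not pass either: Cox6b2 with -0.25, Sdhaf1 with -0.15 and the first row of Cox7a1 with 0.16. The value of Cox6b2 ran from -0.37 without DMSO replicate 1 to -0.11 without DMSO replicate 3, and that of Cox7a1 from 0.35 without DMSO replicate 1 to -0.09 without E2 replicate 1.

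4OHT against DMSO asks whether the antiestrogen acts on the chain by itself. No member was called, with or without the block (lowest limma adjusted p 0.253 with it), where 0% of all rows were called without the block and 0.062% with it. At an unadjusted p under 0.05 there were 2 members (Ndufb3 and Uqcr10), against 2.59% of all rows. The values of the members nevertheless lay on 1 side: 90 of 93 log2 fold changes were above 0, against 62.7% of all tested rows, and so were those of all 74 subunits, which ran from 0.03 to 0.19. The median was 0.079 for the members, a difference of 5.62%, and 0.025 for all tested rows.

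The median lay above 0 in each complex, and the differences between complexes were not tested. The medians were 0.075 for complex I, 0.067 for complex II, 0.079 for complex III, 0.096 for complex IV and 0.081 for complex V, and 0.062 for the assembly factors. The pair medians over all members were 0.092, 0.098 and 0.048. Of the 91 members with a value in every sample, 24 were higher in each 4OHT sample than in each DMSO sample, against 4.36% of all such rows, and 65 were higher in all 3 pairs, against 30.5%.

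**Figure D3:**
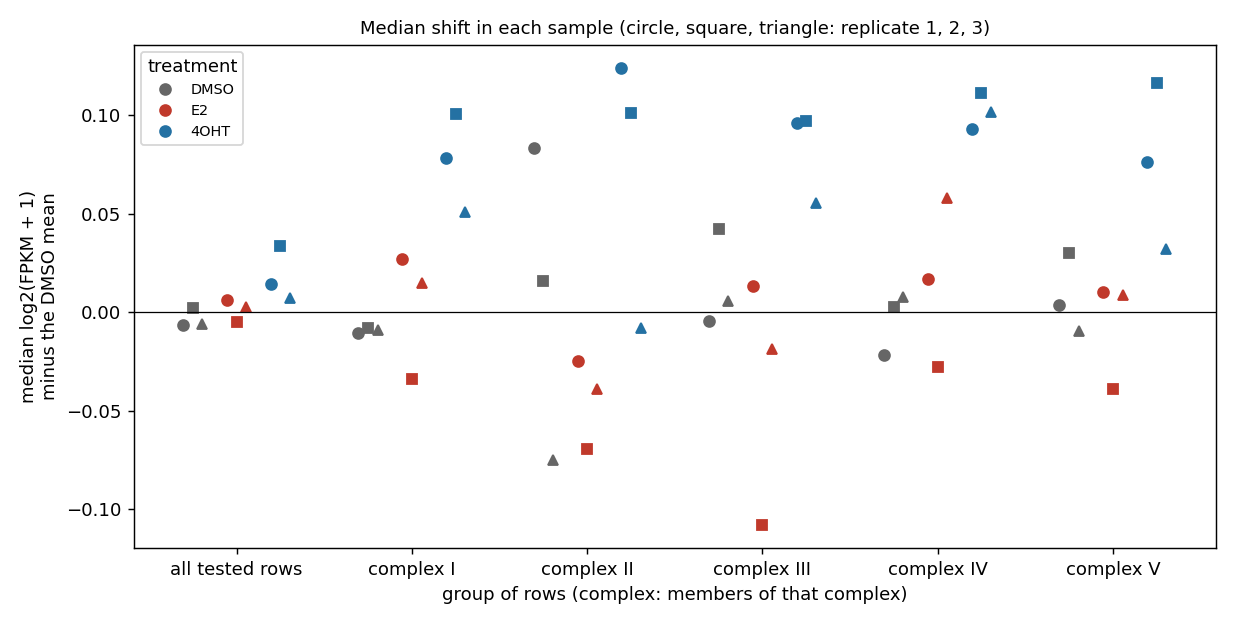
Median over rows of log2(FPKM + 1) in each sample minus the row's DMSO mean, for all tested rows and for the members of each complex; colours are treatments and symbols replicate numbers. For complexes I, III, IV and V each 4OHT sample lies above each DMSO sample, while E2 samples lie on either side of 0.

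Ndufb3, an accessory subunit of complex I, was at 68.0, 77.3 and 70.7 FPKM in DMSO and 79.9, 83.1 and 83.1 in 4OHT. The groups did not overlap, and the log2 fold change was 0.19 ± 0.06 (limma adjusted p = 1.00, and 0.253 with the block). Uqcr10, a small subunit of complex III, stood at 189 FPKM in each DMSO sample and at 214, 202 and 210 in 4OHT. Its log2 fold change was 0.14 ± 0.05 with a limma adjusted p of 1.00, and 0.253 with the block. Sdhb, the iron-sulfur subunit of complex II, was at 92.1, 113 and 106 FPKM in DMSO and 113, 114 and 125 in 4OHT, a log2 fold change of 0.18 ± 0.10 that ran from 0.10 without DMSO replicate 1 to 0.24 without DMSO replicate 2. The highest fold change was that of Cox6b2 (0.21), a testis isoform with at most 2.76 FPKM in any sample, whose value was 0.09 without DMSO replicate 1 and 0.35 without DMSO replicate 3. The 3 members below 0 were Atp5sl (-0.07), Atp5s (-0.06) and Ndufaf2 (-0.02).

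Other scalings between samples lowered the values of the members and of all rows by about the same amount. After setting all samples to the same FPKM total the members' median was 0.021 and that of all rows -0.029, and after upper-quartile scaling 0.022 and -0.027. The members' median thus lay above that of all rows by 0.054 as deposited, and by 0.050 and 0.049 after these scalings. Of the 74 subunits, 61 and 64 then remained above 0. All 4OHT samples lay above all DMSO samples in 4 of 91 members under either scaling, against 0.719% and 0.8% of all rows, and 22 and 21 members were higher in all 3 pairs, against 9.27% and 9.4%. With the block, 23 members (24.7%) had an unadjusted p under 0.05 against 13.7% of all rows, and 4 members (4.30%) against 13.6% when the totals were also made equal.

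Other measures moved with the treatment. Every 4OHT sample was shallower than every DMSO sample, so depth and treatment cannot be told apart. Transcript length also moved with the shift: over all tested rows the 4OHT median was 0.065 for transcripts under 1000 bases, 0.058 from 1000 to 2000, 0.037 from 2000 to 4000 and -0.008 from 4000 bases on, and the members are short, with a median of 1251 bases against 3340. The members' own medians in these classes were 0.078 (36 genes), 0.090 (29), 0.068 (22) and 0.085 (6). Length here is that of the longest annotated transcript of each gene, which need not be the one expressed. Members in the longest class, such as Atp5l (6310 bases) and Atp5g1 (4715), may be placed there by a long form, which was not tested. With the block and a correction for GC content and length the members' median was 0.037 and that of all rows 0.003, a difference of 0.034. Cytosolic ribosomal proteins, which are also short and abundant transcripts, had a median of 0.074 (83 of 85 above 0, with 0 called). Their part in the shift was not tested.

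**Figure D4:**
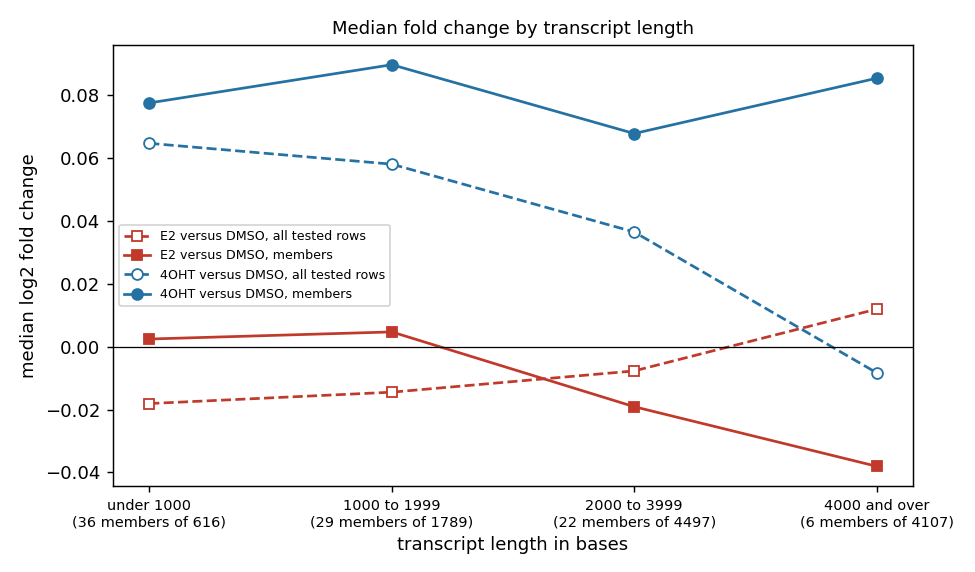
Median log2 fold change by transcript length in bases for all tested rows (open symbols, dashed) and for members (filled), with the number of members and rows in each class. Length is that of the longest annotated transcript of each gene. For 4OHT the median of all rows goes from 0.065 in the shortest class to -0.008 in the longest, and that of the members stays between 0.068 and 0.090.

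E2 against 4OHT sets the agonist beside the antiestrogen. Both arms were compared with DMSO above, so these values share their samples with those comparisons. No member was called without the block, against 0.327% of all rows, and 12 had an unadjusted p under 0.05, against 11.7%. The median log2 fold change was -0.090 for members and -0.014 for all rows, with 82 members below 0. Here too the median of all rows moved with transcript length. It was -0.066 under 1000 bases, -0.058 from 1000 to 2000, -0.032 from 2000 to 4000 and 0.027 from 4000 bases on. The members' medians in these classes were -0.094, -0.090, -0.095 and -0.106. The part of length was not tested. Each E2 sample was lower than each 4OHT sample in 27 of 91 members, against 10% of all rows. With the block 12 members were called, against 21.5% of all rows, 11 of them lower in E2 (11.8% of the members, against 10.9% of all rows) and 1 higher (against 10.6%). The share called lower was thus close to that of all rows.

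The members called lower in E2 than in 4OHT came from complexes I, III, IV and V. In complex III, Uqcrc1, a core protein, was at 108, 118 and 122 FPKM in E2 and 126, 150 and 130 in 4OHT, with 116, 138 and 130 in DMSO. The E2 and 4OHT samples did not overlap, and the log2 fold change was -0.22 ± 0.05 (limma with block, adjusted p = 0.0186, and 0.406 without it). Uqcr10 was at 190, 175 and 184 FPKM in E2, below all 4OHT values given above. Its log2 fold change was -0.19 ± 0.03, with the lowest adjusted p of any member in this comparison (limma with block, 0.00986, and 0.246 without it).

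In complex V all 3 genes for subunit c were called lower. Atp5g3 was at 723, 692 and 758 FPKM in E2 and 797, 845 and 805 in 4OHT, with a log2 fold change of -0.17 ± 0.05 (limma with block, adjusted p = 0.0377). For Atp5g2 it was -0.16 ± 0.04 and for Atp5g1 -0.19 ± 0.05, and in all 3 genes the E2 and 4OHT samples did not overlap. Since these genes share much of their coding sequence, reads between them may have been divided by the authors' estimate, and the 3 values are not independent.

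Complex I gave 4 of these genes: the accessory subunits Ndufa5 (-0.17) and Ndufb6 (-0.14), the iron-sulfur core subunit Ndufs8 (-0.14), and the assembly factor Ndufaf4 (-0.13). In complex IV they were Cox5b (-0.14) and Cox6b2. Cox6b2 had the largest value, -0.46 ± 0.10 (limma with block, adjusted p = 0.0175), but stood only at 1.35 to 1.49 FPKM in E2 and 2.01 to 2.76 in 4OHT. Atp5sl, at 2.35 to 2.85 FPKM in 4OHT and 2.89 to 3.63 in E2, was the 1 member called higher in E2, by 0.29 ± 0.06 (limma with block, adjusted p = 0.0161). Without 1 sample the blocked fit called 0 members (4OHT replicate 1 left out), 2 (4OHT replicate 2), 3 (E2 replicate 2), 5 (DMSO replicate 3), 7 (DMSO replicate 2 or E2 replicate 3) or 10 (each of the others). With the block and equal FPKM totals, also chosen after seeing the data, 10 members were called, 9 of them lower, against 8.67% of all rows called lower. Of these 12 genes, Atp5sl was the 1 also called in E2 against DMSO.

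**Figure D5:**
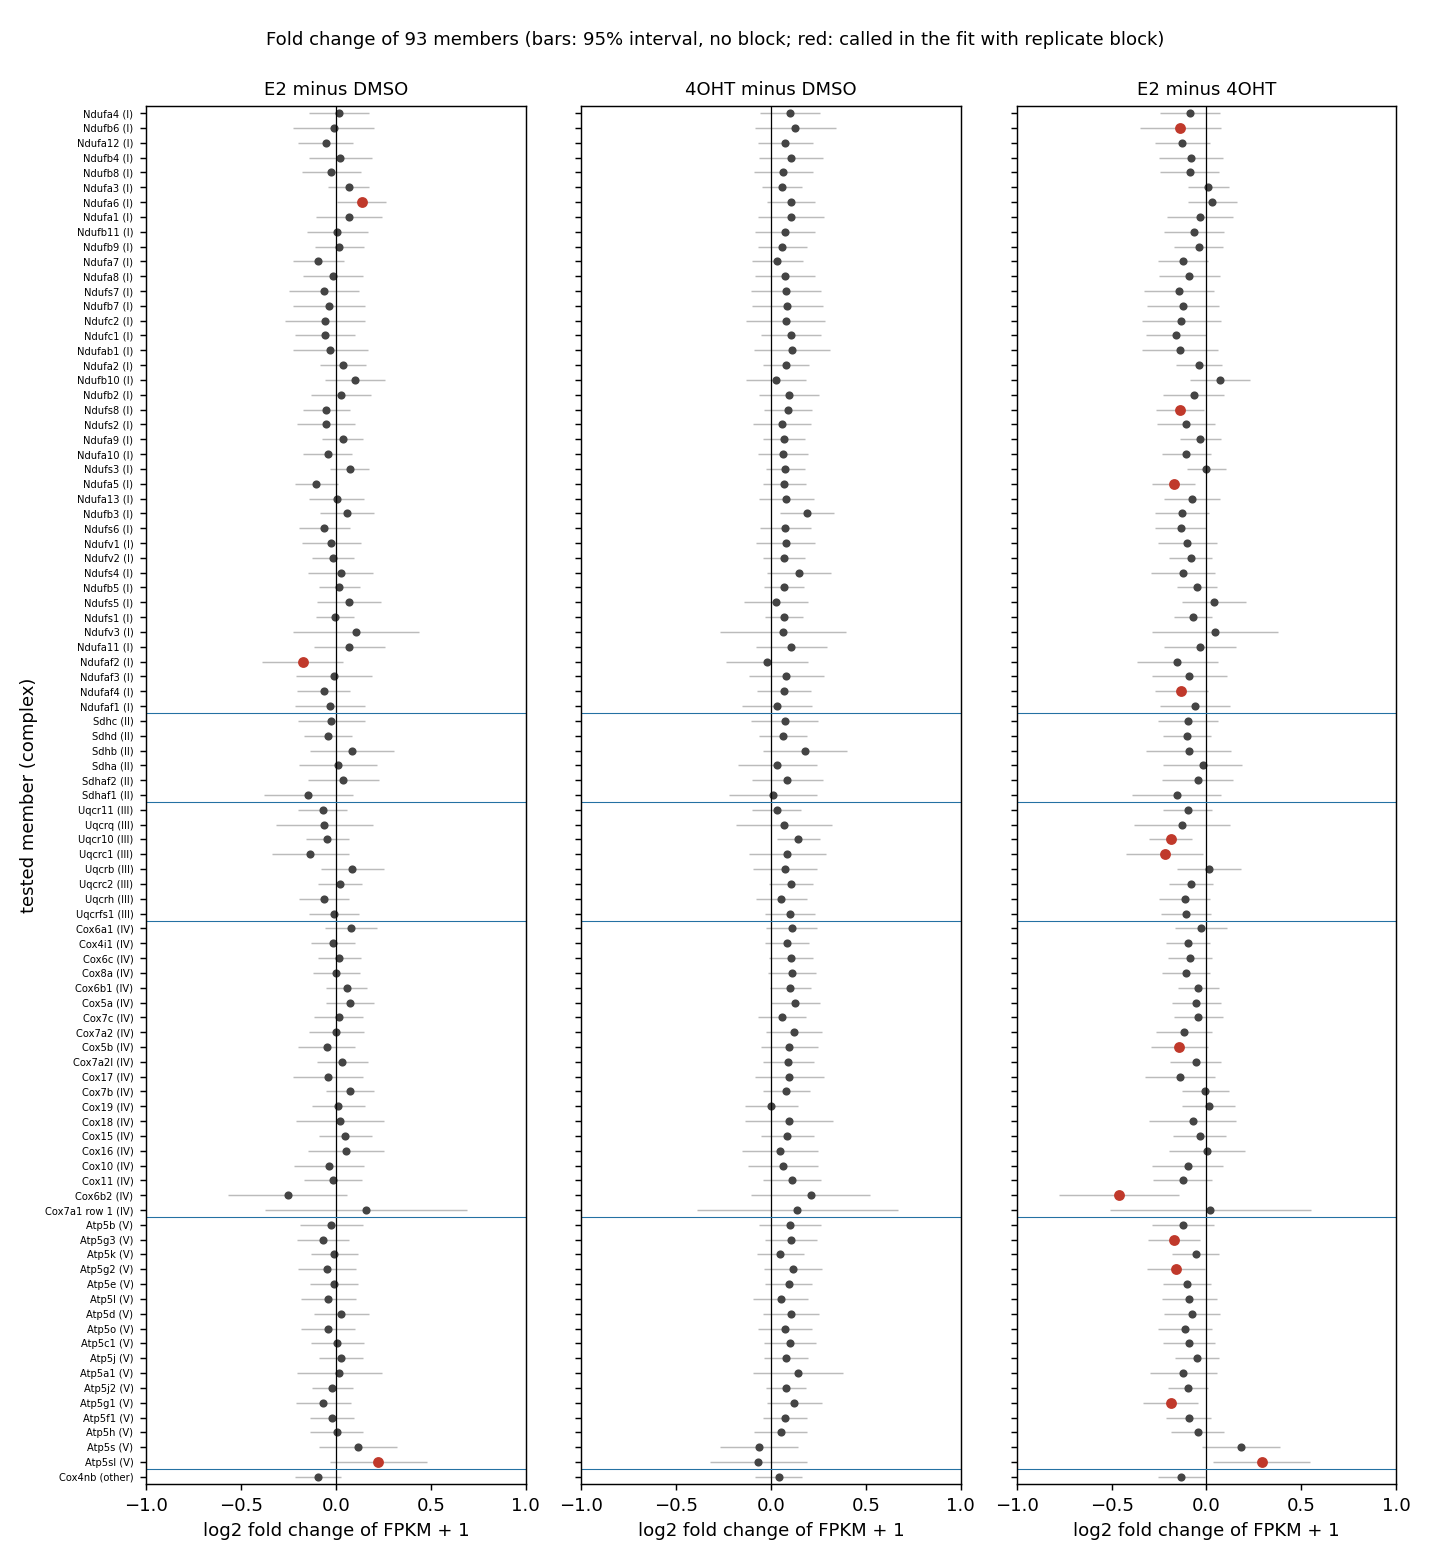
Log2 fold change of FPKM + 1 for each of the 93 tested members, ordered by complex and by level in DMSO; bars are 95% intervals of the fit without block and red points are members called with the replicate block. Points lie on both sides of 0 for E2 minus DMSO, to the right of 0 in 90 of 93 for 4OHT minus DMSO, and to the left in 82 of 93 for E2 minus 4OHT.

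Members also differed by replicate number. Replicate 1 differed from replicates 2 and 3, with treatment in the fit, in 25 of 93 members, 13 higher and 12 lower, against 41% of all tested rows (20.7% higher and 20.3% lower). Ndufv3, an accessory subunit of complex I, was at 38.4, 41.7 and 39.9 FPKM in the samples numbered 1 and at 28.3 to 34.7 in the other 6, a log2 difference of 0.32 ± 0.04 (limma adjusted p = 3.63e-04). Sdha, the flavoprotein of complex II, was at 56.2 to 57.2 FPKM in replicate 1 and 47.7 to 51.6 in the others (0.20 ± 0.03, limma adjusted p = 0.00129). Sdhb of the same complex differed the other way (-0.19 ± 0.05, limma adjusted p = 0.0187), as did Uqcrq of complex III (-0.21) and Cox18, an insertion factor of complex IV (-0.21). Members of 1 complex thus did not share a direction. The first row of Cox7a1 (0.49) had the largest difference but was at 0.975 to 2.78 FPKM. Leaving out 1 sample at a time gave 9 members without DMSO replicate 1 or 4OHT replicate 1, 16 without E2 replicate 1 or DMSO replicate 3, and 18 to 31 otherwise.

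Genes of the pathway outside the name rule were counted in the same fits. There were 23 tested genes of the chain with other symbols (cytochrome c, cytochrome c1, further assembly factors and others such as Usmg5 and Atpif1). In E2 against DMSO 0 of them were called, where 0.601% of all rows were without the block and 18.5% with it. In 4OHT against DMSO 0 were called, where 0% of all rows were without the block and 0.062% with it. Cycs, cytochrome c, was at 56.6, 61.9 and 58.8 FPKM in DMSO, 61.8, 58.5 and 62.4 in E2 and 61.4, 64.5 and 63.7 in 4OHT. Cyc1, the heme subunit of complex III, was at 151, 175 and 171 in DMSO, 151, 155 and 163 in E2 and 176, 191 and 168 in 4OHT. With the block 5 of the 23 were called lower in E2 than in 4OHT, against 10.9% of all rows, Cyc1 among them (adjusted p = 0.046 in limma). In 4OHT against DMSO their median was 0.079, with 20 above 0.

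Of 15 tested regulators of mitochondrial biogenesis, 0 were called in any of the 3 treatment comparisons without the block, where 0 to 0.601% of all rows were. With the block 0 were called in E2 against DMSO, where 18.5% of all rows were, and 0 in 4OHT against DMSO, where 0.062% were. In E2 against 4OHT 1 was called with the block, where 21.5% of all rows were. This was Tfam, which packages and transcribes mitochondrial DNA, at 12.9, 12.7 and 12.9 FPKM in E2 and 14.1, 15.9 and 14.3 in 4OHT (log2 fold change -0.19, limma with block, adjusted p = 0.026). Esrra, Nrf1 and Gabpa, activators of many chain genes, were expressed at 12.9 to 15.5, 10.3 to 12.7 and 19.5 to 21.0 FPKM and were not called. The coactivators Ppargc1a (0.385 to 0.752 FPKM) and Ppargc1b (0.537 to 0.728) were below the limit for testing. The regulators' median in 4OHT against DMSO was 0.005, with 8 above 0.

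The tricarboxylic acid cycle and pyruvate dehydrogenase, which feed the chain, gave 18 tested genes. With the block 1 was called in E2 against DMSO, Idh2, with a log2 fold change of -0.16 (limma adjusted p = 0.047), and 3 were lower in E2 than in 4OHT, against 6.47% and 10.9% of all rows called lower. Their 4OHT median was 0.057, with 16 above 0. Mitochondrial ribosomal proteins (74 genes) had medians of -0.066 in E2 and 0.061 in 4OHT against DMSO, and mitochondrial protein import (20 genes) of -0.056 and 0.063. With the block 2 and 1 of these were lower in E2 than in DMSO, where 6.47% of all rows were, and 24 and 6 lower in E2 than in 4OHT, where 10.9% of all rows were. Of the 85 cytosolic ribosomal proteins 0 were lower in E2 than in DMSO and 29 lower in E2 than in 4OHT. Over all members the median under E2 was thus close to 0 (-0.008), where the mitochondrial ribosomal, import and cytosolic ribosomal (-0.053) lists lay below it. Complex III, at -0.053, lay near those lists. The difference was not tested.

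The promoters of the members were searched on both strands for motifs of 4 factors, in windows of 250 bases before to 50 bases after the RefSeq start (GRCm38.p6). Of the members, 79 symbols matched, with 86 windows, out of 32851 windows of this length. The nuclear respiratory factor 1 motif was first searched as a palindrome of 10 bases, GCGCATGCG followed by C, which was in 6 member windows (6.98%, against 0.971% of all windows). A shorter form without the last C, GCGCATGCG, was searched only after that result had been seen. It was in 9 member windows (10.5%, against 1.75%), and by its letters it takes in every match of the longer form. The palindromic estrogen response element, GGTCA and TGACC with any 3 bases between them, was in 0 of the 86 member windows and 0.07% of all. The estrogen-related receptor motif TCAAGGTCA was in only 2 member windows (2.33%, against 0.423% of all windows). The ETS motif ACTTCCGG, which GABP reads, was in 8 (9.3%, against 3.89%). The estrogen-related receptor motif ends in GGTCA, the arm of the estrogen response element. A match describes letters, and binding was not measured.

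Among the members called lower in E2 than in 4OHT with the block, Atp5g2, Ndufaf4 and Uqcrc1 held the nuclear respiratory factor 1 motif in both forms and Atp5g3 the estrogen-related receptor motif. The shorter form was also by Atp5k, Atp5l, Cox6a1, Ndufa11, Ndufa8 and Uqcr11, and the estrogen-related receptor motif by Sdhd. None of these was called in that comparison, and a link between motif and call was not tested. The 4 sites shown were picked because they lie by called genes. Each is given as 30 bases on the gene's strand with the motif, for nuclear respiratory factor 1 its shorter form, in capitals. The motif begins 42 bases before the start of Atp5g2 (chr15:102671070-102671099, minus strand), 113 before that of Ndufaf4 (chr4:24897960-24897989, plus strand), after that of Uqcrc1 (chr9:108936668-108936697, plus strand), and 52 before that of Atp5g3 (chr2:73911359-73911388, minus strand), where it reads on the opposite strand.
Atp5g2: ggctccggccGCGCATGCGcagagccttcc
Ndufaf4: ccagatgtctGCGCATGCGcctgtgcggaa
Uqcrc1: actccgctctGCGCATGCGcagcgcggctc
Atp5g3: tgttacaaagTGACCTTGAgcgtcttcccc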

How the data were processed

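The genes and lists were chosen with earlier results of these data known. Per the labels, reads were aligned to mm10 with TopHat2 2.0.8b, and Cuffdiff 2.1.1 is named. The authors deposited FPKM for genes of a UCSC annotation, and a further scaling between libraries is not given in the sources used here. A strand-specific oligo-dT library gives 50-base single reads, so low values rest on few reads. From the deposited FPKM, log2(FPKM + 1) was fitted with limma 3.58.1 (R 4.3.3, trend, 9 samples, 1 coefficient per treatment), for the 11339 rows that reached 1 FPKM in 3 or more samples, with Benjamini-Hochberg adjustment over all of them and a threshold of 0.05. Fold changes are on this scale and understate those of low genes. Where the nonzero median was at least 5 FPKM, zeros (516 values) were treated as missing. The fit with replicate number as a block is a pairing taken from the numbers in the labels: deviations of same-numbered samples correlated at 0.454 to 0.801 over 11122 rows. The named members were those with the 3 largest changes each way, those called, those with zeros, the highest of each complex and a chosen set. Lengths are those of the longest transcript of each gene in GENCODE M21 (GRCm38), and promoters are from RefSeq. The fit was tested on simulated data. Alternatives were other scalings, pseudocount and filter, zeros as values, the block, a GC and length correction, 6 samples only and each sample left out. The block with equal totals, the block with a sample left out, and the shorter nuclear respiratory factor 1 motif were added after seeing the data.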

Additional observations from a re-analysis of the deposited data

How the results depend on the processing

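In each of the 3 treatment comparisons, 0 members were called without the block under every scaling, pseudocount, filter, treatment of zeros and left-out sample tried. The replicate block, a pairing taken from the labels, gave 3 members for E2 versus DMSO and 12 for E2 versus 4OHT. With the block and equal FPKM totals these were 4 and 10, against 21.6% and 21.8% of all rows. With the block and the correction for GC content and length they were 5 and 16, against 24.995% and 24.93%. With the block and zeros as values they were 0 and 8, against 15.01% and 16.2%. Counting both directions, the members' share lay below that of all rows in each of these settings. With the GC and length correction 14 members (15.1%) were lower in E2 than in 4OHT, against 13.3% of all rows. Leaving out 1 sample at a time from the blocked fit gave 0 to 3 and 0 to 10 members. For 4OHT against DMSO 0 members were called in all of these. Leaving out 1 sample from the comparison of replicate 1 with the others gave 9 to 31 in place of 25. The blocked fit with equal totals or a left-out sample was chosen after seeing the data.

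The medians for 4OHT against DMSO moved by more than the SD of the 3 pairs under other scalings. Under upper-quartile scaling they were 0.022 over all members and 0.018, 0.013, 0.022, 0.039 and 0.023 for complexes I to V, under equal totals 0.021 and 0.015, 0.015, 0.019, 0.036 and 0.021, and with the block and the GC and length correction 0.037 and 0.029, 0.018, 0.037, 0.049 and 0.039. Without 1 sample the complex II median ran from 0.043 to 0.117 and that of complex III from 0.072 to 0.098. Members with all 4OHT samples above all DMSO samples were 4 under upper-quartile scaling and 4 under equal totals (0.8% and 0.719% of all rows), and those higher in all 3 pairs 21 and 22 (9.4% and 9.27%). Without 1 sample the E2 against DMSO median, close to 0, changed sign over all members and in complexes I, II, IV and V (over all members -0.0155 to 0.021), and the complex IV median of E2 against 4OHT ran from -0.097 to -0.045. Of 324 medians recomputed, 302 moved by less than the SD of the 3 pairs.

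Of 784 recomputed values for 31 single-gene differences, 6 changed sign, all by leaving out 1 sample: the first row of Cox7a1 in E2 against DMSO (-0.089 to 0.35), and in 4OHT against DMSO Atp5sl (-0.16 to 0.02) and Ndufaf2 (-0.083 to 0.034), whose changed values were 0.020 for Atp5sl and 0.010, 0.023, 0.008 and, with the block, 0.034 for Ndufaf2. The cause was not tested. The files hold no counts, so counting error is not known for single genes and matters most for those at a few FPKM.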
